A study of Mus musculus with 7 samples.

Results

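B cell and plasma cell genes were followed across 7 mouse lung RNA-sequencing libraries. The set holds 9 genes, Cd79a, Cd79b, Ms4a1, Igj, Pou2f2, Pou2af1, Cr2, Blk and Fcer2a, and each was matched by its symbol to 1 of 22447 gene rows. The groups were 3 lung tumors of mice with the genotype EZH2 overexpression (OE tumor 1 to 3), 2 lungs labelled normal from that genotype (OE normal 1 and 2) and 2 wild-type lungs (WT 1 and 2). EZH2 is the histone methyltransferase of Polycomb repressive complex 2. The sources used here do not give the promoter of the transgene or the strain, age and sex of the mice. No label says whether replicates were separate animals, so each p-value reflects the spread between these samples alone, which may be technical. The growth text shared by all samples describes dishes of minced tumor nodules in serum-containing medium, yet the source is named lung tissue. The sources used here therefore leave unstated whether tumor RNA came from fresh or cultured material.

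B cells bind antigen through a membrane immunoglobulin that signals through the partner chains Cd79a and Cd79b, and Src-family kinases such as Blk act just below them. Mature B cells also carry the membrane protein CD20 (Ms4a1), complement receptor type 2 (Cr2) and the low-affinity IgE receptor CD23 (Fcer2a). The factor Oct-2 (Pou2f2) binds the octamer sequence of immunoglobulin promoters, and Pou2af1 is the B cell coactivator that binds with it. Plasma cells, the antibody-secreting descendants of B cells, make the J chain (Igj, now named Jchain), which joins IgM and IgA into polymers that epithelial cells can carry into secretions. In bulk tissue, fewer B cells and less RNA per B cell cannot be told apart.

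Because the set holds an octamer-binding factor with its coactivator, promoter windows of its members were examined. RefSeq windows on GRCm38.p6, from 250 bases before to 50 after a gene's start, were matched by symbol for 6 of the 9 genes (Cd79a, Igj, Pou2f2, Pou2af1, Cr2 and Fcer2a, 8 windows in all). The expression files name mm9 and carry no coordinates, so the windows serve only as sequence. The 4 windows below belong to the signaling chain whose level fell furthest, to the octamer factor, to its coactivator and to the plasma cell product. Capitals mark the letters searched on both strands, TGCAAAT (the last 7 bases of the octamer ATGCAAAT), CAGGTG (an E-box bound by E proteins) and GAGGAA (a core bound by PU.1 and other ETS factors), and these letters were chosen with the sequences in view. The windows lie at chr7:24897247-24897546 (plus strand, Cd79a), chr7:25132411-25132710 (minus strand, Pou2f2), chr9:51213440-51213739 (plus strand, Pou2af1) and chr5:88527848-88528147 (minus strand, Igj).
Cd79a: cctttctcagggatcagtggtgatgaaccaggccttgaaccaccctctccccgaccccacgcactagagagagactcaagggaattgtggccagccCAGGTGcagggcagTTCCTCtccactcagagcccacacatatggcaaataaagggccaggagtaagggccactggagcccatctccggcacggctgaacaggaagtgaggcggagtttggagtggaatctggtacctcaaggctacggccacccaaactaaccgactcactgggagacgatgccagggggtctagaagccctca
Pou2f2: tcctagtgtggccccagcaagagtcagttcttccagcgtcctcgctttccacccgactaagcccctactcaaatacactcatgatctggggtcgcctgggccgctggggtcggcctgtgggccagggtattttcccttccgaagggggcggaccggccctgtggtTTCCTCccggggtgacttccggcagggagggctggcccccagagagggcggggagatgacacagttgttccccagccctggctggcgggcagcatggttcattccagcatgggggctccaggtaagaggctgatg
Pou2af1: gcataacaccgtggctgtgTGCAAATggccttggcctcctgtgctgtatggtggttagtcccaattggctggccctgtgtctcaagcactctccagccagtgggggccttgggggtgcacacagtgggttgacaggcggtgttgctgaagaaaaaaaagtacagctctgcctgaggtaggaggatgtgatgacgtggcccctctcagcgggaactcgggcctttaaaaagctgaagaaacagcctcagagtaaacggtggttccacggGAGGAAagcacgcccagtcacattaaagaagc
Igj: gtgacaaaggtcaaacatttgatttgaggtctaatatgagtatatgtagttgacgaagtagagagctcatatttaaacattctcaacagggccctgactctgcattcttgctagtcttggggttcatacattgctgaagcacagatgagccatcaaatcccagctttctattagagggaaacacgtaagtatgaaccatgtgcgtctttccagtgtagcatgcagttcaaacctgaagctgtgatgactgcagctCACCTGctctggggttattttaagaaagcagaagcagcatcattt

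The full octamer ATGCAAAT was present in 0 of the 8 windows, against 1.74% of all 32851 RefSeq promoter windows of the same length. Its last 7 bases stood in the Pou2af1 window, starting 231 bases before the gene's start, and in 4.02% of all windows. CAGGTG was found in 4 of the 8 windows and in 20.2% of all windows. It began 154 bases before the start of Cd79a and 88 bases before the start of Cr2. GAGGAA was found in 3 of the 8 windows, those of Cd79a, Pou2f2 and Pou2af1, and in 28.3% of all windows. None of the matches overlapped another. A match describes the letters in the window and is not evidence of binding.

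Levels are FPKM, fragments per kilobase of transcript scaled to library size. Read totals were not among the sources, and the spacing of low FPKM values put the relative depth of the remaining libraries at 1.21 to 1.85, with OE tumor 1 as 1.00. Ezh2 was at 8.48, 23.5 and 22.6 FPKM in OE tumors 1 to 3, 10.2 and 11.5 FPKM in OE normal lungs, and 3.72 and 2.58 FPKM in WT lungs, so every library of the overexpression genotype stood above both WT lungs. The surfactant gene Sftpb, a marker of lung epithelium, was between 749 and 6954 FPKM in every library. Sftpc, the defining surfactant gene of alveolar type II cells, was at 35944 FPKM in OE tumor 1 and between 10578 and 15915 FPKM in the normal lungs, but was listed at 0 in OE tumors 2 and 3. With FPKM alone, a failed estimate and an absent transcript cannot be told apart for these zeros. Some of the results that change without OE tumor 1 are given below without it, but not every list count that changes. Ptprc, the leukocyte common antigen and a gene chosen after its values were seen, was at 19.1, 6.87 and 8.01 FPKM in OE tumors 1 to 3, 52.7 and 52.4 FPKM in OE normal lungs 1 and 2, and 18.9 and 11.9 FPKM in WT lungs 1 and 2.

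All 9 genes reached 1 FPKM in both OE normal lungs and in WT 1, and 7 did so in WT 2. In OE tumors 1, 2 and 3 this number was 4, 3 and 3, and 5 genes did so in at least 1 tumor. All 9 passed the filter used for testing (a minimum of 1 FPKM, reached by 2 or more libraries), 4 of them through the normal lungs alone. For those 4, Ms4a1, Pou2f2, Cr2 and Blk, the filter itself required a higher level outside the tumors. Cd79a and Pou2af1 reached 1 FPKM in OE tumor 1 but in no further tumor, so they too needed a normal lung to pass.

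The antigen receptor chains came apart from each other in OE tumors 2 and 3. Cd79a, the immunoglobulin-associated alpha chain, was at 1.58, 0.272 and 0.878 FPKM in OE tumors 1 to 3, 38.7 and 144 FPKM in OE normal lungs 1 and 2, and 23.6 and 10.5 FPKM in WT lungs 1 and 2. The 3 groups did not overlap, and OE normal 2 stood far above every other library. Cd79b, the beta chain, was at 2.84, 16.4 and 16.4 FPKM in OE tumors, 44.8 and 145 FPKM in OE normal lungs, and 23.6 and 12.0 FPKM in WT lungs. Its levels in OE tumors 2 and 3 lay between those of the WT lungs, while OE tumor 1 was low for both chains. Blk, a Src-family kinase of B cells, was at 0.414, 0.0903 and 0.377 FPKM in OE tumors, 8.45 and 35.8 FPKM in OE normal lungs, and 3.23 and 3.43 FPKM in WT lungs. The WT lungs were almost equal for Blk, and the OE normal lungs were the only group above them.

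The ratio of the chains shows the same separation, and because FPKM is per length the genes can be set side by side. Cd79b over Cd79a was 1.79, 60.2 and 18.7 in OE tumors 1 to 3, 1.16 and 1.01 in OE normal lungs and 0.997 and 1.14 in WT lungs. The 4 normal lungs thus had nearly equal levels of the chains, whatever their absolute level. This ratio was chosen after the values were seen and was not tested. OE tumor 1, at 1.79, was the tumor nearest to the normal lungs. The ratios of 60.2 and 18.7 rest on Cd79a at 0.272 and 0.878 FPKM, low values whose counting error is unknown.

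**Figure D1:**
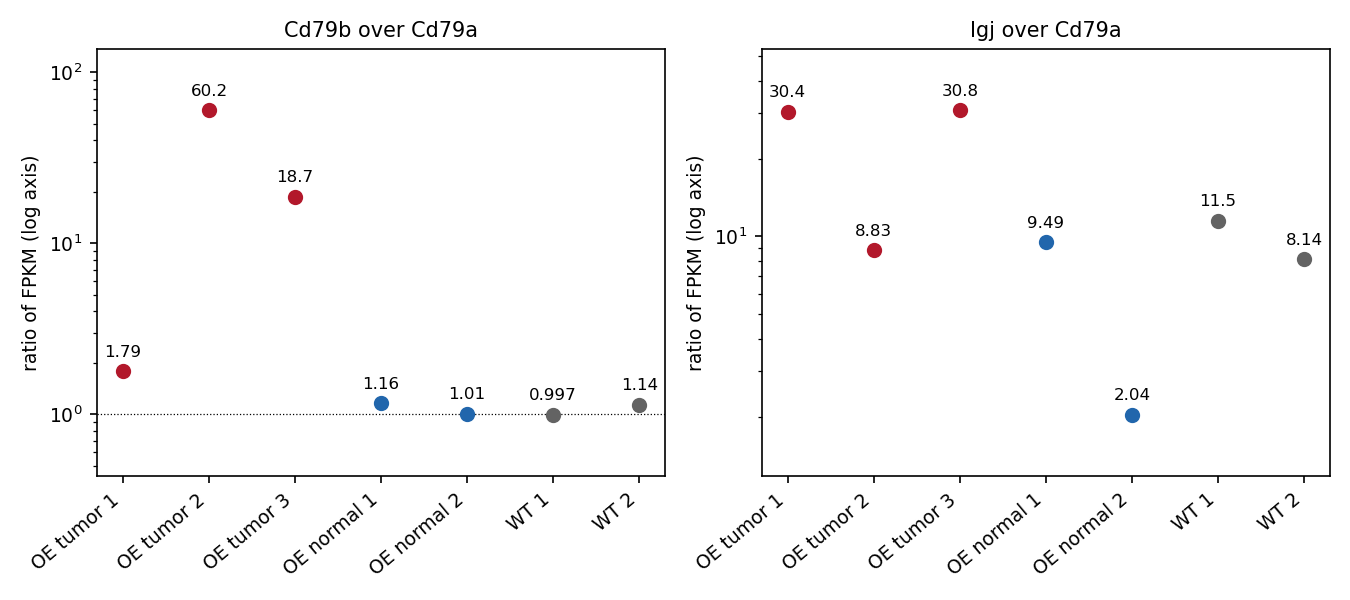
Ratios of FPKM between members in each library (log axis), with Cd79b over Cd79a on the left and Igj over Cd79a on the right; red points are OE tumors, blue OE normal lungs and grey WT lungs, and the dotted line marks equality. Cd79b over Cd79a lies between 0.997 and 1.16 in the normal lungs and reaches 60.2 in OE tumor 2, and Igj over Cd79a is lowest in OE normal 2 at 2.04.

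Among the other surface proteins, Ms4a1 had the widest range. Ms4a1, which encodes CD20, was at 0.285, 0.0276 and 0.137 FPKM in OE tumors, 14.5 and 105 FPKM in OE normal lungs, and 9.15 and 5.21 FPKM in WT lungs. Cr2, which in mice encodes both CD21 and CD35 and is also expressed on follicular dendritic cells, was at 0.0787, 0.00571 and 0.00774 FPKM in OE tumors, 1.49 and 2.28 FPKM in OE normal lungs, and 1.25 and 0.767 FPKM in WT lungs. Neither gene had a tumor above 0.3 FPKM or groups that overlapped. Fcer2a was at 0.817, 1.49 and 1.77 FPKM in OE tumors, 6.15 and 3.52 FPKM in OE normal lungs, and 4.09 and 2.09 FPKM in WT lungs. Here OE normal 2 lay below WT 1, so the OE normal and WT lungs overlapped.

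The transcription factors followed the receptor genes. Pou2f2 was at 0.725, 0.191 and 0.320 FPKM in OE tumors, 7.38 and 10.2 FPKM in OE normal lungs, and 1.63 and 0.897 FPKM in WT lungs. Its OE normal libraries stood close together and well above the WT lungs. Pou2af1 was at 1.16, 0.0796 and 0.558 FPKM in OE tumors, 19.0 and 34.8 FPKM in OE normal lungs, and 18.2 and 5.78 FPKM in WT lungs. For Pou2af1 the gap between WT 1 and OE normal 1 was small, although the groups did not overlap.

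Igj was the most abundant of the 9 genes in every library except OE tumor 2, where Cd79b stood higher. It was at 48.1, 2.40 and 27.0 FPKM in OE tumors, 367 and 293 FPKM in OE normal lungs, and 271 and 85.7 FPKM in WT lungs. WT 1 lay just below OE normal 2, and OE tumor 2 was lower than any other library. Igj over Cd79a was 30.4, 8.83 and 30.8 in OE tumors, 9.49 and 2.04 in OE normal lungs, and 11.5 and 8.14 in WT lungs, so OE normal 2 had the least J chain for its Cd79a.

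**Figure D2:**
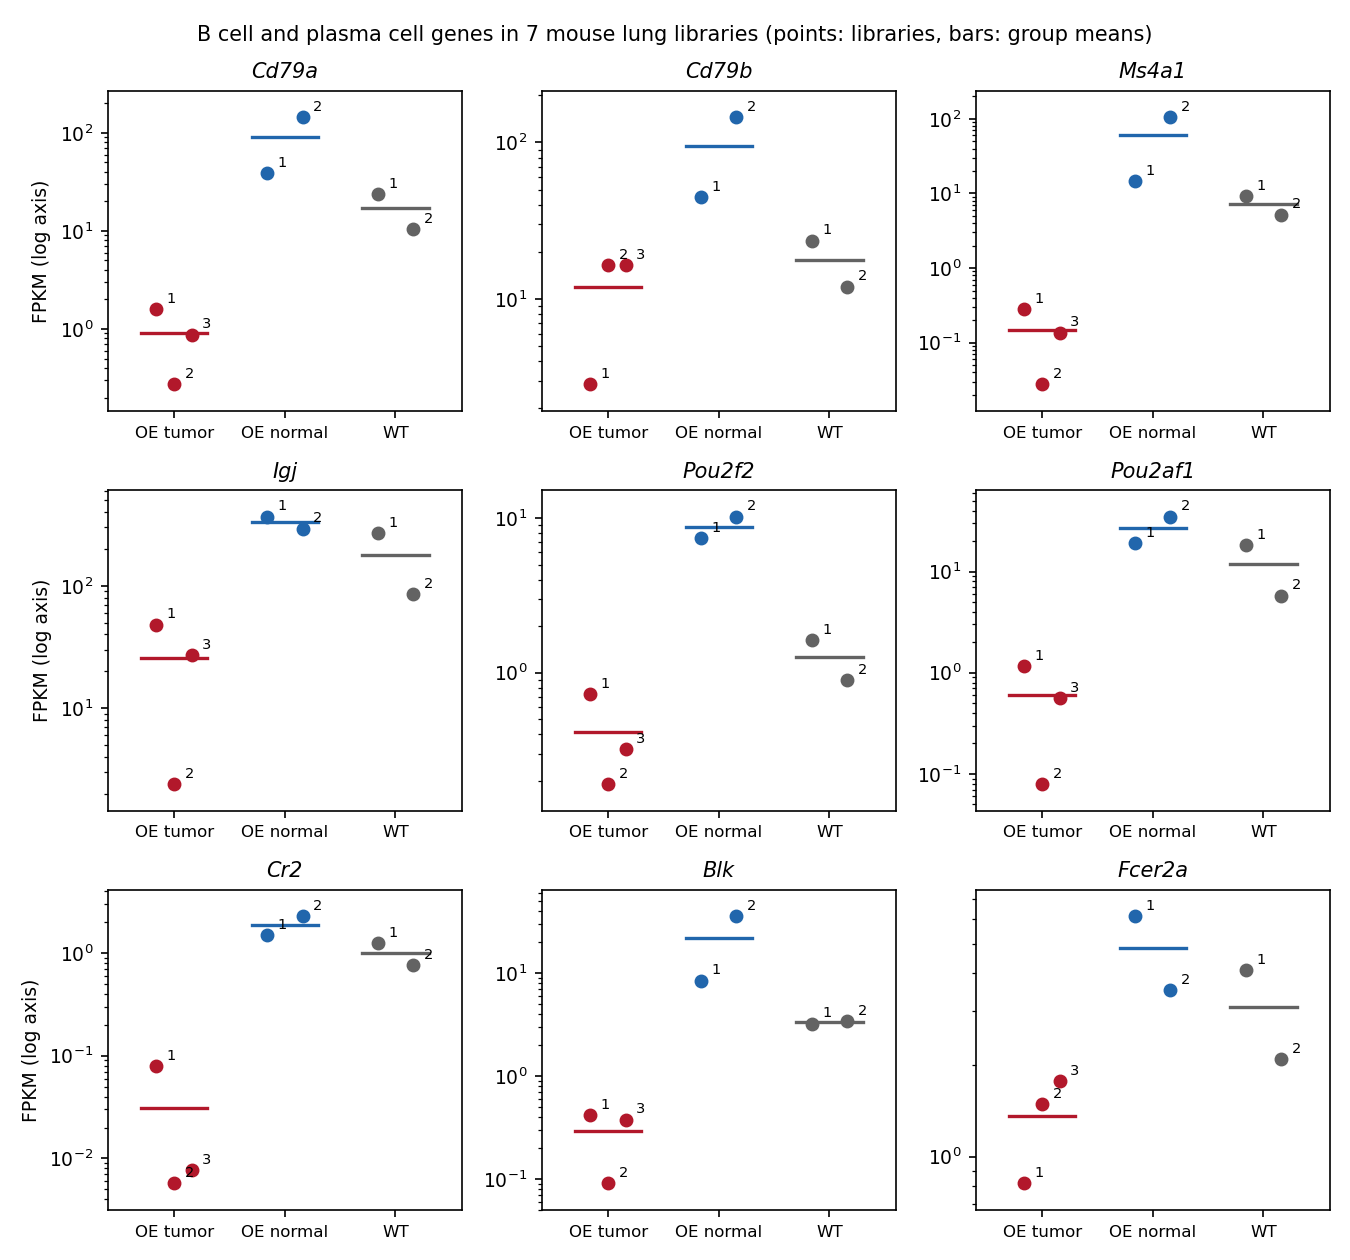
FPKM of each of the 9 genes (log axes, 1 panel per gene) in the 3 OE tumors, 2 OE normal lungs and 2 WT lungs; points are libraries with their replicate number and bars are group means. For Cd79a the OE tumors lie at 0.272 to 1.58 FPKM, the OE normal lungs at 38.7 and 144 FPKM and the WT lungs at 10.5 and 23.6 FPKM, while Cd79b has OE tumors 2 and 3 at 16.4 FPKM, among the WT lungs.

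Taking each gene's libraries together, 7 of the 9 genes were ordered without overlap from OE tumors through WT lungs to OE normal lungs, the exceptions being Cd79b (tumors among WT lungs) and Fcer2a (WT lungs among OE normal lungs). The same order held for 6.99% of the 14057 genes tested. The order was known from earlier results of these data, so it is a description. Under the alternatives run, the number of the 9 genes in this order was 6 to 8, and the share of all genes in it was 3.75% with quantile normalization and 14.4% after rescaling to TPM.

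The genes did not differ alike between libraries of a group. Set against OE normal 1, OE normal 2 had 7.27 times the level of Ms4a1, 4.23 times that of Blk, 3.71 times that of Cd79a and 3.23 times that of Cd79b. The factors Pou2af1 and Pou2f2 were only 1.83 and 1.38 times higher there and Cr2 1.53 times, whereas Igj and Fcer2a were lower in OE normal 2, at 0.798 and 0.573 times. Between the WT lungs, WT 1 exceeded WT 2 for 8 of the genes, by 3.16 times for Igj, 3.15 times for Pou2af1 and 2.24 times for Cd79a, with Blk at 0.943 times. Among the tumors, OE tumor 2 was the lowest for 7 genes, and OE tumor 1 had 20.0 times its Igj and 14.5 times its Pou2af1. The exceptions were Cd79b and Fcer2a, which were lowest in OE tumor 1.

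The first comparison asked how lung tumors differ from lung of the same genotype. All 9 genes fell in OE tumors against OE normal lung in limma (Benjamini-Hochberg adjusted p under 0.05 over all genes tested), and all 9 had groups without overlap. Over all genes, 24.9% were called lower and 35.9% had every tumor below both OE normal lungs. Cd79a, Ms4a1, Pou2f2, Pou2af1, Cr2 and Blk needed a normal lung to pass the filter, so their calls are not independent of it. The median log2 difference of the 9 genes was -3.86, against -0.11 over all genes tested, on the log2(FPKM + 1) scale, which understates changes of low genes such as Cr2. It was -4.47 with a pseudocount of 0.1, -4.62 after rescaling to TPM and -2.88 without OE normal 2. Group means of FPKM differed 400-fold for Ms4a1, 100-fold for Cd79a and 75.3-fold for Blk, but only 3.56-fold for Fcer2a. Set against OE normal 1 alone, the folds were 96.8 for Ms4a1, 42.5 for Cd79a and 28.8 for Blk.

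Cd79a averaged 0.911 ± 0.656 FPKM in OE tumors and 91.2 ± 74.2 FPKM in the OE normal lungs (difference in log2 -5.37, SE 0.63, limma adjusted p = 0.00154). For Ms4a1 the means were 0.150 ± 0.129 and 60.0 ± 64.3 FPKM (-5.15, SE 0.76, limma adjusted p = 0.00343). Pou2f2 had the smallest adjusted p of the set, at 0.412 ± 0.279 FPKM in OE tumors and 8.79 ± 2.00 FPKM in the OE normal lungs (-2.80, SE 0.25, limma adjusted p = 6.14e-04). Pou2af1 differed by -4.12 (SE 0.53), Blk by -3.86 (SE 0.53) and Cr2 by -1.47 (SE 0.18), with limma adjusted p between 0.00180 and 0.00273. Igj differed by -4.30 (SE 1.15, limma adjusted p = 0.0287), Cd79b by -2.96 (SE 0.83, limma adjusted p = 0.0335) and Fcer2a by -1.29 (SE 0.32, limma adjusted p = 0.0231). These last calls were the fragile ones. Cd79b did not pass in limma without OE normal 1, OE normal 2, WT 1 or WT 2 (adjusted p = 0.0529, 0.196, 0.0568 and 0.0570), Igj did not without OE tumor 3, OE normal 1 or OE normal 2 (adjusted p = 0.0519, 0.138 and 0.118), and Fcer2a did not without OE tumor 2 or OE normal 1 (adjusted p = 0.0542 and 0.146).

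**Figure D3:**
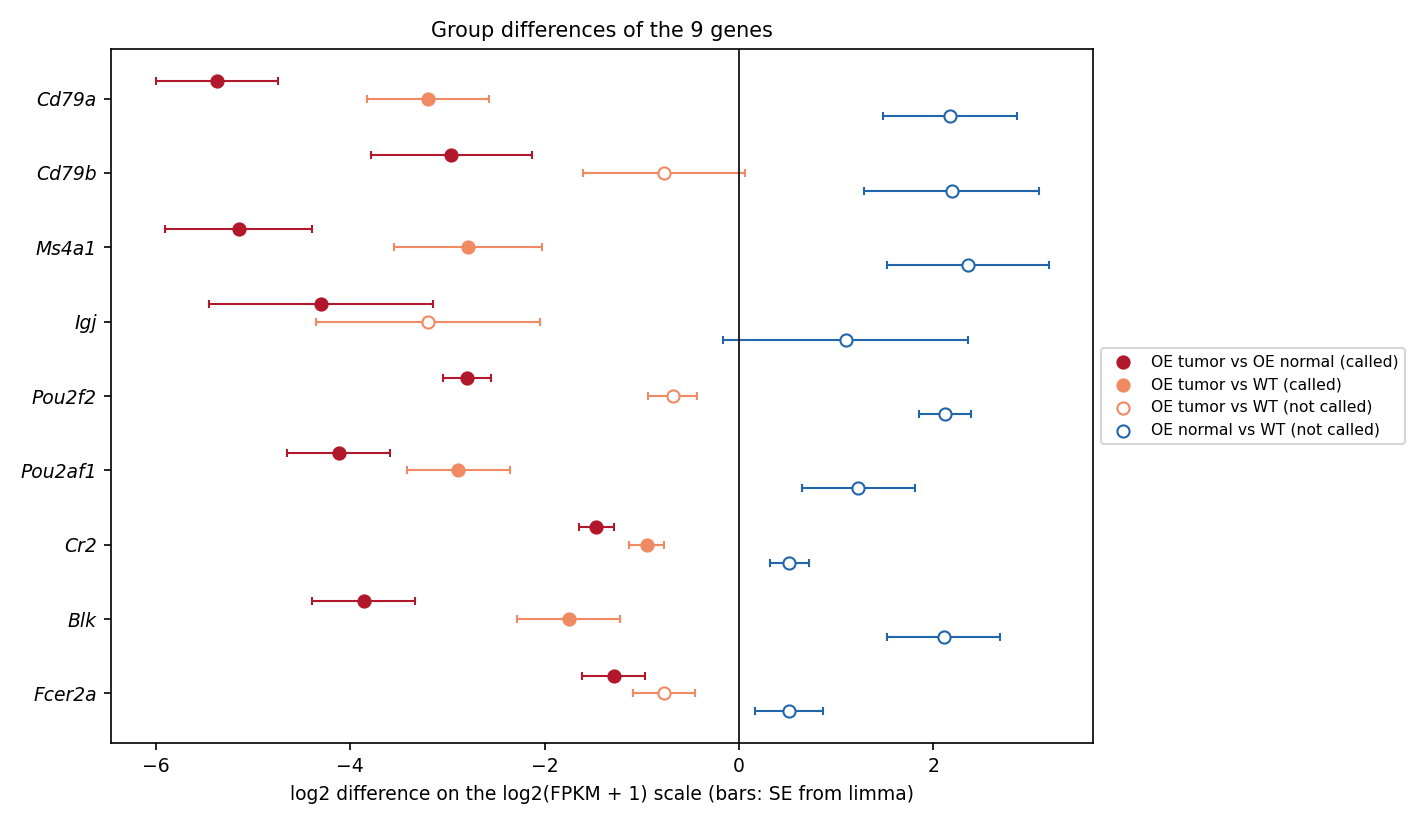
Log2 differences of the 9 genes on the log2(FPKM + 1) scale for OE tumor against OE normal lung (dark red), OE tumor against WT lung (orange) and OE normal against WT lung (blue); bars are the SE from limma, and filled points have an adjusted p under 0.05. All 9 dark red points are filled and below 0, 5 of the orange points are filled, and no blue point is filled although all lie above 0.

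The second comparison set the tumors against lung without the overexpression genotype. Of the 9 genes, 5 fell in OE tumors against WT lung in limma, Cd79a, Ms4a1, Pou2af1, Cr2 and Blk, where 23.2% of all genes were called lower. All 5 needed a normal lung to pass the filter, so these calls are not independent of it. Groups did not overlap for 8 of the 9, against 35.0% of all genes with every tumor below both WT lungs. The median difference was -1.75, against -0.06 over all genes tested, and it was -3.25 with a pseudocount of 0.1 and -2.79 for the 7 genes left by a filter at 5 FPKM. This comparison shares its tumor libraries with the first. Without OE tumor 1 limma called 9429 of 13969 genes here in either direction, the background for the count of that fit given below.

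Pou2af1 averaged 0.598 ± 0.540 FPKM in OE tumors and 12.0 ± 8.81 FPKM in WT lung (difference in log2 -2.89, SE 0.53, limma adjusted p = 0.00780). Cd79a was at 0.911 ± 0.656 FPKM in OE tumors and 17.1 ± 9.27 FPKM in WT lung (-3.20, SE 0.63, limma adjusted p = 0.0103), and Cr2 at 0.0307 ± 0.0416 FPKM and 1.01 ± 0.342 FPKM (-0.95, SE 0.18, limma adjusted p = 0.00882). Ms4a1 differed by -2.79 (SE 0.76, limma adjusted p = 0.0308) and Blk by -1.75 (SE 0.53, limma adjusted p = 0.0441). Igj was at 25.9 ± 22.9 FPKM in OE tumors and 178 ± 131 FPKM in WT lung and did not pass (-3.20, SE 1.15, limma adjusted p = 0.0712), nor did Pou2f2 (-0.68, SE 0.25, limma adjusted p = 0.0736) or Fcer2a (-0.77, SE 0.32, limma adjusted p = 0.107). Cd79b was at 11.9 ± 7.84 FPKM in OE tumors and 17.8 ± 8.16 FPKM in WT lung (-0.77, SE 0.83, limma adjusted p = 0.494), a difference smaller than its standard error. The number of genes called was 1 without WT 1, 3 without WT 2, OE tumor 2 or OE tumor 3, and 7 without OE tumor 1, when Igj (limma adjusted p = 0.0201) and Pou2f2 (limma adjusted p = 0.0190) passed as well. Pou2af1 passed in every leave-one-out fit, and Cd79a and Cr2 did not pass without WT 1 (limma adjusted p = 0.0749 and 0.0638). Ms4a1 and Blk did not pass without OE tumor 2, OE tumor 3, WT 1 or WT 2, at a limma adjusted p of 0.0768 to 0.164 for Ms4a1 and 0.0937 to 0.179 for Blk.

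The third comparison asked what differs between overexpressing and wild-type lung labelled normal. In OE normal lung all 9 genes had the higher mean and 8 had both libraries above both WT lungs, an arrangement seen in 29.6% of all genes. None passed in limma, which called 0 of 14057 genes (0%) in this comparison, while 1208 genes (8.59%) had an unadjusted limma p under 0.05. By that unadjusted measure 5 of the 9 genes were higher and 0 lower, against 6.13% of all genes higher and 2.47% lower. The 5 were Cd79a, Ms4a1, Pou2f2, Cr2 and Blk. The median difference was 2.11, against 0.02 over all genes, and it was 1.13 without OE normal 2.

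Pou2f2 had the most regular difference, with 8.79 ± 2.00 FPKM in the OE normal lungs and 1.27 ± 0.521 FPKM in WT lung (difference in log2 2.12, SE 0.27, limma adjusted p = 0.144). It passed when OE tumor 1 did not enter the fit (limma adjusted p = 0.0389), a fit that called 302 of 13969 genes. Ms4a1 was at 60.0 ± 64.3 FPKM in the OE normal lungs and 7.18 ± 2.79 FPKM in WT lung (2.36, SE 0.83, limma adjusted p = 0.482), and Cd79a at 91.2 ± 74.2 FPKM and 17.1 ± 9.27 FPKM (2.17, SE 0.69, limma adjusted p = 0.422). For these receptor genes OE normal 2 carried most of the height, and without it the differences were 0.97 for Ms4a1 and 1.24 for Cd79a. Igj differed by 1.10 (SE 1.26, limma adjusted p = 0.999), less than its standard error.

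The counts of the lists that follow stand against 24.9% of all genes called lower and 13.1% called higher in OE tumors against OE normal lung, and 23.2% lower and 15.0% higher against WT lung. Against WT lung the share of lower calls was near that background for signaling genes (28.0%), B lineage transcription factors (26.7%), plasma cell genes (23.1%), macrophage and dendritic cell markers (28.6%) and paralogs (29.4%). Some listed genes stayed under 1 FPKM in every tumor, so that the filter admitted them only through the normal lungs where they were high. They numbered 5 of 25 signaling genes, 5 of 15 transcription factors and 10 of 22 surface and follicle genes. They were also 7 of 16 T and NK cell markers and 0 to 3 genes in each of the other lists. Among the genes named below these were Fcrla, Pax5, Ebf1, Spib, Ikzf3, Faim3, H2-Ob, Tnfrsf13c, Ppbp and Gp9, and Btla, which is in no list. For them, as for Ms4a1, the filter itself required a higher level outside the tumors. Bach2, Irf4, Cxcl13, Ccl19, Ms4a4b, Nkg7, Tcf7 and Clec9a reached 1 FPKM in only 1 tumor, so they too needed a normal lung to pass. The counts above leave out genes of this kind. List counts without OE tumor 1 stand against a larger background. That fit called 9604 genes against OE normal lung and 9429 against WT lung, of 13969 tested, in either direction. Leaving out any other library lowered the calls over all genes in both comparisons. Without OE tumor 2 they went from 5350 to 3708 against OE normal lung and from 5371 to 3625 against WT lung. A smaller list count in such a fit need not be particular to the list.

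Of 25 co-receptor and signaling genes tested, 19 fell and 1 rose in OE tumors against OE normal lung (median -1.86), and the count of 20 was 12 without OE normal 2. The tetraspanin Cd37 was at 6.24, 3.14 and 4.06 FPKM in OE tumors, 38.8 and 112 FPKM in OE normal lungs, and 20.2 and 13.7 FPKM in WT lungs (OE tumor against OE normal -3.65, SE 0.48, limma adjusted p = 0.00221). Every tumor lay below every normal lung for Cd37. Fcrla, an Fc receptor-like protein of B cells, also fell (-3.53, SE 0.44). The gene that rose was the tetraspanin Cd81 (0.41, SE 0.11, limma adjusted p = 0.0323), which many cell types express and which was named after its values were seen. Against WT lung 7 of the 25 fell and 2 rose (Cd81 and the inhibitory receptor Fcgr2b), with a median of -0.51. That count of 9 was 1 without WT 1, 4 without WT 2 or OE tumor 3, 3 without OE tumor 2 and 14 without OE tumor 1.

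Of 15 B lineage transcription factors, 11 fell in OE tumors against OE normal lung and 0 rose (median -1.58), and 7 were called without either OE normal library. Pax5, which commits cells to the B lineage, was at 0.116 and 0.0169 FPKM in OE tumors 1 and 2 and listed at 0 in OE tumor 3, with 3.95 and 13.7 FPKM in OE normal lungs and 2.64 and 1.20 FPKM in WT lungs. Spib, an ETS factor of B cells and plasmacytoid dendritic cells, differed by -3.81 (SE 0.61) and the lymphoid zinc finger factor Ikzf3 by -3.46 (SE 0.36). Against WT lung 4 fell and 0 rose (median -0.62). These were Bach2, Ebf1, Ikzf3 and Irf4, named after their values were seen, and 0 were called without WT 1 and 2 without WT 2. Of 22 surface and follicle genes, not all of them receptors, 15 fell and 0 rose against OE normal lung (median -1.92). The falls were led by the IgM receptor Faim3 (-4.21, SE 0.50), the class II modulator H2-Ob (-3.67, SE 0.32) and lymphotoxin beta, Ltb (-3.59, SE 0.35). Against WT lung 8 fell and 2 rose (Ciita and Ly6d; median -0.63), and this count of 10 was 6 without OE tumor 2 and 5 without WT 1.

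Plasma cell genes split. Of 13 tested, 5 fell and 1 rose in OE tumors against OE normal lung, and the list median of -0.02 was close to that of all genes. Mzb1, a chaperone of marginal zone B and plasma cells, was at 2.26, 0.385 and 1.84 FPKM in OE tumors, 50.9 and 74.4 FPKM in OE normal lungs, and 36.1 and 10.8 FPKM in WT lungs (OE tumor against OE normal -4.74, SE 0.58, limma adjusted p = 0.00177). Irf4, a factor required for plasma cells, differed by -2.28 (SE 0.25). Sdc1, a proteoglycan of plasma cells that epithelium also makes, rose to 202, 249 and 242 FPKM in OE tumors, against 67.0 and 46.2 FPKM in OE normal lungs (2.03, SE 0.19, limma adjusted p = 7.39e-04). Against WT lung 3 fell (Irf4, Mzb1 and Prdm1) and 4 rose (Pdia4, Sdc1, Sec11c and Txndc5), and this count of 7 was 4 without OE tumor 3 and 3 without OE tumor 2, WT 1 or WT 2. The genes that rose are a membrane proteoglycan and secretory pathway proteins found in many cell types.

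Genes of B cell attraction, B cell survival and immunoglobulin transport, taken as 1 list, also differed. Of 12 tested, 7 fell and 2 rose (Ltbr and Tnfsf13) in OE tumors against OE normal lung, with a median of -1.85. The count was 4 without OE normal 2 and 5 without OE tumor 2 or OE tumor 3. Cxcl13, the chemokine that draws B cells into follicles, was at 10.0, 0.301 and 0.645 FPKM in OE tumors, 18.3 and 110 FPKM in OE normal lungs, and 8.93 and 7.28 FPKM in WT lungs. As with Ms4a1, OE normal 2 stood far above the rest, and without it the tumor difference for Cxcl13 did not pass (-2.75, limma adjusted p = 0.188). It also missed the threshold without OE tumor 2, OE tumor 3, WT 1 or WT 2, at a limma adjusted p of 0.0609 to 0.0882. The lymphoid chemokines Ccl21a (-3.65, SE 0.47) and Ccl19 (-3.22, SE 0.38) fell. For Ccl21a the normal lungs were close, at 37.6 and 52.8 FPKM in OE normal lungs and 34.7 and 43.3 FPKM in WT lungs. Ccl19 was at 17.4 and 17.1 FPKM in OE normal lungs and 13.2 and 8.42 FPKM in WT lungs, without overlap. Ccl21a has near-identical copies, between which the counting could have divided reads. Against WT lung 4 fell and 2 rose (Il7 and Tnfsf13), and 3 were called without WT 1.

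Of the immunoglobulin and surrogate chain families 4 rows were analysed, of which 3, Igll1, Vpreb1 and Vpreb2, stayed below 1 FPKM in every library. Vpreb3, a B cell relative of the surrogate light chain gene Vpreb1, was at 0.925, 0.167 and 0.168 FPKM in OE tumors, 25.3 and 36.0 FPKM in OE normal lungs, and 29.8 and 33.9 FPKM in WT lungs. It fell in OE tumors against OE normal lung (-4.50, SE 0.28, limma adjusted p = 2.98e-04) and against WT lung (-4.57, SE 0.28, limma adjusted p = 2.40e-04), and it too stayed under 1 FPKM in every tumor. Its OE normal and WT libraries overlapped, with a difference of -0.07 (SE 0.30, limma adjusted p = 1.00). Among paralogs of the 9 genes, 10 of 17 tested fell and 1 rose (the kinase Src) in OE tumors against OE normal lung (median -1.40), and 7 were called without OE normal 2. Ms4a4b, a relative of CD20 found in T cells, was at 0.331, 0.644 and 1.02 FPKM in OE tumors, 17.6 and 26.5 FPKM in OE normal lungs, and 3.93 and 1.82 FPKM in WT lungs. Ms4a4d differed by -2.70 (SE 0.37) and the T cell kinase Lck by -2.40 (SE 0.42). Against WT lung 5 fell and 3 rose (Ms4a6d, Ms4a7 and Src), and this count of 8 was 3 without WT 1, 4 without WT 2 and 5 without OE tumor 2 or OE tumor 3.

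Many markers of other blood and immune cells moved with the B cell genes, but macrophage markers were mixed. The part of these cells in the results was not tested. The summed level of 17 T and NK cell markers was 22.8, 13.0 and 20.9 FPKM in OE tumors, 113 and 192 FPKM in OE normal lungs, and 82.6 and 53.1 FPKM in WT lungs, with no marker at 0 in any library. This is the same order of groups as for Cd79a. Of 16 tested, 16 fell against OE normal lung (median -2.15) and 10 against WT lung (median -1.10). With quantile normalization 3 were called against WT lung. The count of 10 against WT lung was 4 without WT 1 and 5 without OE tumor 2. Nkg7 (-3.45, SE 0.48), Tcf7 (-2.75, SE 0.30) and Cd2 (-2.66, SE 0.80) were the largest falls against OE normal lung, of which Cd2 did not pass without any 1 of 6 libraries, all but OE tumor 1 (limma adjusted p = 0.0731 to 0.228).

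The myeloid markers were less uniform. The summed level of 14 macrophage and dendritic cell markers was 2620, 682 and 860 FPKM in OE tumors, 4333 and 2974 FPKM in OE normal lungs, and 3609 and 2482 FPKM in WT lungs, and Lyz2, the lysozyme gene, made up most of it, at 2400 FPKM in OE tumor 1 and 3417 and 2312 FPKM in WT lungs. By mean log2(FPKM + 1) of the same 14 genes OE tumor 1 was at 3.71, above both WT lungs at 3.57 and 3.31. The macrophage genes of the list, named after their values were seen, were not called against OE normal lung. Siglec5 (0.99, SE 0.59), Marco (0.32, SE 0.41), Itgax (0.30, SE 0.34) and Mrc1 (0.25, SE 0.66) lay above 0. Cd68 (-0.10, SE 0.43), Emr1 (-0.80, SE 0.42), Csf1r (-1.14, SE 0.42) and Lyz2 (-1.72, SE 0.63) lay below it. Of the 14 markers, 5 fell and 0 rose against OE normal lung (median -0.89), with 9 called without OE tumor 1. Those that fell included the dendritic cell genes Clec9a (-2.81, SE 0.23) and Zbtb46 (-1.86, SE 0.19) and the interferon-induced Bst2 (-1.79, SE 0.15). Against WT lung 4 fell and 2 rose (Cd68 and Itgax), and 3 were called without OE tumor 3 or WT 1. The 7 genes listed for follicular dendritic cells, a stromal cell that also expresses Cr2, summed to 4142, 295 and 278 FPKM in OE tumors, 299 and 407 FPKM in OE normal lungs, and 269 and 260 FPKM in WT lungs. Madcam1 was listed at 0 in OE tumor 1, and the high sum there was Clu, at 3900 FPKM. Against OE normal lung 2 of 6 tested fell (Cxcl13, and the adhesion molecule Vcam1 at -2.10, SE 0.19) and 0 rose, with 4 called without OE tumor 1 and 1 without any other library except OE normal 1. Against WT lung 2 fell and 1 rose (Fcgr2b), with 6 called without OE tumor 1 and 1 without OE tumor 2, OE tumor 3, WT 1 or WT 2.

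Red cell genes fell as well. The summed level of 12 erythroid, platelet and neutrophil markers was 133, 386 and 391 FPKM in OE tumors, 5900 and 4155 FPKM in OE normal lungs, and 3465 and 3640 FPKM in WT lungs. Hbb-b2, a beta globin, was at 21.2, 62.5 and 66.9 FPKM in OE tumors, 2375 and 1776 FPKM in OE normal lungs, and 1298 and 1528 FPKM in WT lungs (OE tumor against OE normal -5.49, SE 0.50, limma adjusted p = 6.69e-04). The alpha globin copies Hba-a1 (-5.13, SE 0.49) and Hba-a2 (-6.52, SE 1.57) share sequence, so their reads could have been divided between them, and Hba-a2 did not pass without OE normal 1 or OE normal 2 (limma adjusted p = 0.110 and 0.0947). Of 11 tested, 8 fell and 1 rose (the platelet chemokine Pf4) against OE normal lung, and 5 were called without OE tumor 2 or OE tumor 3. The platelet genes Ppbp (-3.47, SE 0.86) and Gp9 (-2.28, SE 0.61), named after their values were seen, fell, so the platelet markers were mixed. Neither Ppbp nor Gp9 was called against WT lung. Against WT lung 4 fell and Pf4 rose, and 3 were called without WT 1 or WT 2.

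**Figure D4:**
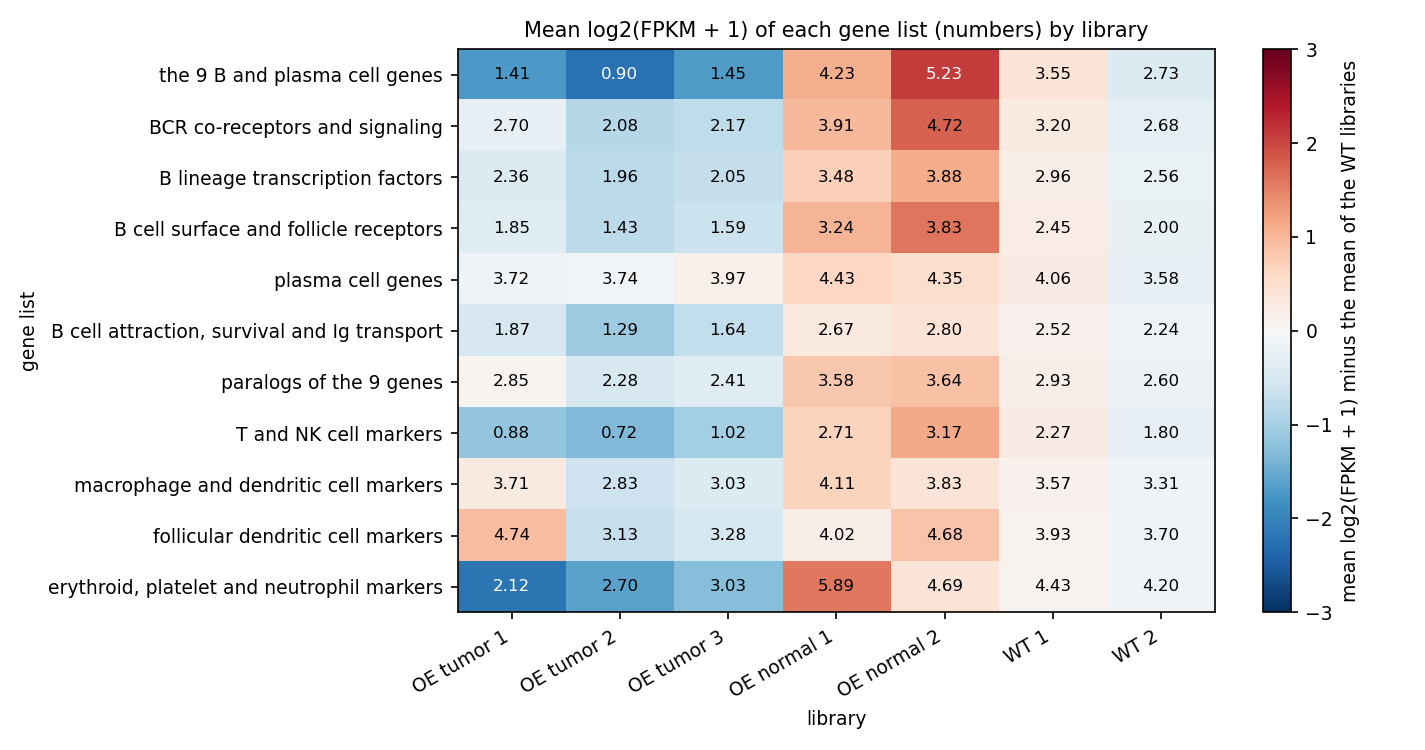
Mean log2(FPKM + 1) of the 9 genes and of each gene list (rows) in each library (columns), printed in the cells; color gives the difference from the mean of the WT libraries. The 9 genes range from 0.899 in OE tumor 2 to 5.23 in OE normal 2, and the T and NK cell markers from 0.72 to 3.17 in the same libraries, while plasma cell genes stay between 3.58 and 4.43.

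Between OE normal and WT lung the median log2 difference was 1.47 for signaling genes and 1.41 for surface and follicle genes. For B lineage transcription factors it was 0.96. The medians were 0.58 for plasma cell genes, 0.26 for attraction, survival and transport genes and 1.22 for paralogs. They were 0.92 for T and NK cell markers and 0.42 for macrophage and dendritic cell markers. Follicular dendritic cell markers had 0.50, and erythroid, platelet and neutrophil markers had 0.82. Limma called 0 members of every list in that comparison. Without OE tumor 1 it called 6 signaling genes, 5 surface and follicle genes and 3 paralogs. It also called 2 macrophage and dendritic cell markers and 1 T or NK cell marker in that fit. Over all genes, that fit called 302 of 13969 tested.

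The genes with the pattern most like the set were found by the mean absolute difference between centered log2(FPKM + 1) profiles over the 7 libraries, among 11168 other genes reaching 5 FPKM. The closest 10 were Ltb and Ikzf3 (0.11 each), Gbp2, Nkg7 and Tgtp2 (0.13 each), Ptprcap (0.15), Fcrla (0.16), Btla (0.17), Gimap3 (0.18) and Tnfrsf13c (0.19), against a median of 1.33 over all candidates. Gbp2, an interferon-induced GTPase, was at 3.97, 2.55 and 4.33 FPKM in OE tumors, 41.1 and 64.6 FPKM in OE normal lungs, and 21.1 and 15.1 FPKM in WT lungs. Tnfrsf13c, the receptor for the B cell survival factor BAFF, was at 0.241, 0.0200 and 0.0813 FPKM in OE tumors, 5.40 and 17.7 FPKM in OE normal lungs, and 3.59 and 2.03 FPKM in WT lungs. The members themselves lay 0.31 (Blk) to 0.87 (Igj) from their own mean profile. That these 10 genes lay closer follows largely from picking the smallest distances among 11168 candidates.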

How the data were processed

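RNA was sequenced from 7 mouse lung samples, and the authors deposited 1 file of FPKM values per sample. The submitters' processing notes name TopHat2, TopHat, Cufflinks 2.0.0 and the build mm9. Annotation, strand setting and read totals were not given in the sources, so counting error cannot be stated. Of 22474 rows per file, 27 with a date in place of a symbol were left out.

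Groups came from the labels. Values were analysed as log2(FPKM + 1), without further scaling, for the 14057 genes that reached 1 FPKM in 2 or more libraries. The R 4.3.3 package limma 3.58.1 (moderated by eBayes with trend, all 7 libraries in 3 groups, 2-sided, Benjamini-Hochberg over all genes, threshold 0.05) gave every adjusted p, and the procedure was tested on simulated data. The members, the 10 gene lists and the tests were chosen with earlier results of these data known. Named list genes were up to 3 calls per list with the largest difference between OE tumors and OE normal lung, groups without overlap and 1 FPKM or more in the higher mean. A gene that this rule names is not reported here. Genes named outside this rule are marked as chosen after their values were seen, or are the exceptions in a count. Settings varied 1 at a time were the pseudocount (0.1), the filter (none, or 5 FPKM), the scaling (quantile normalization, TPM, or median of ratios), the trend, the groups in the fit, a block on replicate number, and each library in turn. Figures used Python 3.11.15 and matplotlib 3.10.9.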

Additional observations from a re-analysis of the deposited data

How the results depend on the processing

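No member changed direction under any alternative run, in any of the 3 comparisons. Across single-gene values, 13 lost their call and 129 did not change sides for OE tumors against OE normal lung, 19 lost it, 4 gained it and 119 did not change for OE tumors against WT lung, and 1 gained it and 141 did not change for OE normal against WT lung. The number of members called was 7 to 9 for OE tumors against OE normal lung (6 to 9 with a library left out). For OE tumors against WT lung it was 3 with no filter, 2 with quantile normalization, 2 with a replicate block and 1 to 7 with a library left out, and for OE normal against WT lung 0 to 1 with a library left out. The members' median was -4.47 (pseudocount 0.1), -4.62 (TPM) and -4.13 to -2.88 (a library left out) for OE tumors against OE normal lung. It was -3.25 (pseudocount 0.1), -2.79 (filter at 5 FPKM) and -2.41 (TPM) for OE tumors against WT lung, and 1.13 to 2.33 with a library left out for OE normal against WT lung. List counts for OE tumors against WT lung moved too. Signaling genes went from 9 to 1 with a replicate block. T and NK cell markers went from 10 to 3 with quantile normalization. B lineage transcription factors went from 4 to 2 with quantile normalization or a replicate block, and to 8 after rescaling to TPM. The cause of these shifts was not tested, except that the filter at 5 FPKM leaves 7 members.

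Scaling moved the median over all genes for OE tumors against OE normal lung to 0.05 (median-of-ratios), -0.33 (TPM) and 0.13 (quantile), against -0.11 unscaled, and the share of calls that were higher to 44.6%, 18.2% and 56.0%, against 34.5% unscaled. Against WT lung the share of higher calls was 45.0%, 30.8% and 54.7% in the same order of scalings, and 39.4% without scaling. Over all genes, limma called 5350 for OE tumors against OE normal lung, and 9604 without OE tumor 1, 3031 without OE normal 1, 2877 without OE normal 2 and 3130 with a replicate block. For OE tumors against WT lung it called 5371, and 9429 without OE tumor 1, 2701 without WT 1, 2411 without WT 2 and 2999 with a replicate block. For OE normal against WT lung it called 0, and 302 without OE tumor 1 and 0 to 3 under the other alternatives. Deviations of same-numbered libraries correlated at -0.029 to 0.034 over all genes tested. This does not exclude that replicate numbers pair samples. With 2 libraries in a group the deviations mirror each other, and an effect on few genes need not show. With a single library left in a group, it is assumed to vary like the other groups. Depth limits the values near 0, such as Cr2 in OE tumors 2 and 3, whose counting error is unknown.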
